A study of Homo sapiens with 4 samples.

Results

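The genes described here are 39 genes of the interferon response and of nucleic-acid sensing, taken as a list of symbols and found by Ensembl identifier among 63677 counted genes. They were grouped as 10 sensors of RNA or DNA, 2 adaptors that relay the sensors' signal, 4 transcription factors and 23 effectors. Effectors are the genes that interferon switches on. The sensor group includes ADAR, an RNA-editing enzyme that is not itself a sensor. Reads were counted per gene in RNA from HCT116, a human colorectal cancer cell line, after lipid transfection with an antisense oligonucleotide (ASO) directed at GAA repeats or with a control ASO. Each ASO has 2 libraries, replicate 1 (232 in the titles) and replicate 2 (234 in the titles), and no untransfected library was analysed here. The labels give 48 h of transfection for all 4 libraries, whereas the methods of the study give another duration for ASOs. The methods call the libraries duplicate experiments, and the study's reporting summary says of its experiments in general that they were repeated independently. What the numbers 232 and 234 mark is not given in the sources used here, so the p values below measure the spread between these libraries, whatever its source.

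Total counts ran from 10538284 to 17894953 per library, and 15116 genes passed the filter on low counts and were tested. Levels are given as CPM, the counts scaled to a fixed library size, after scaling by the trimmed mean of M values (TMM). In the tested genes, the replicate numbers were set apart by the first principal component (52.7% of variance) and the ASOs by the second (33.1%). The 6 epithelial markers, all detected, summed to 2680 and 3010 CPM in the anti-GAA libraries and to 2780 and 3040 CPM in the control libraries. Of these, EPCAM, KRT8, KRT18, CDH1 and CLDN7 had both anti-GAA libraries below both control libraries (83.3%, beside 16.9% of all tested genes). KRT19, with the highest level of the 6, was higher with the anti-GAA ASO within either number. It had 1330 and 1640 CPM in the anti-GAA libraries and 1110 and 1370 CPM in the control libraries. The 9 immune markers summed to 1.11 and 1.18 CPM in the anti-GAA libraries and to 2.42 and 1.83 CPM in the control libraries, with CD3E, MS4A1 and CLEC4C at 0 in every library. ITGAM, an integrin of myeloid cells, made up most of this difference, with 6 and 7 counts against 24 and 24, and its part in the results was not tested. The 5 fibroblast and endothelial markers summed to 10.4 to 15.6 CPM, nearly all of it the collagen gene COL1A1, and PECAM1 was at 0 throughout.

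Mammalian cells detect foreign or misplaced nucleic acids with dedicated sensors. Toll-like receptors survey endosomes, the helicases RIG-I (gene RIGI), MDA5 (gene IFIH1) and LGP2 (gene DHX58) bind double-stranded RNA in the cytosol, and cGAS binds cytosolic DNA. The adaptors MAVS and STING1 pass the signal to the factors IRF3 and IRF7, which switch on interferon genes. Secreted interferon then acts through its receptors on factors that include STAT2 and IRF9, which bind a response element in the promoters of effector genes.

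To show that element in the genes at issue, its core was searched in the promoter windows of RefSeq (GRCh38.p14, from 250 bases before the start to 50 bases from the start on). The letters searched were GAAA, any 2 bases, then GAAA, on both strands. A single window was used for each gene. Windows were found for 29 of the 39 genes, and 18 of them (62.1%) held at least 1 match, beside 3.65% of all 27305 RefSeq windows. Matches stood in 4 of 7 sensor windows, 0 of 1 adaptor window, 0 of 2 factor windows and 14 of 19 effector windows. The 10 genes without a window were CGAS, DHX58, IFIT2, IRF3, IRF7, MX2, OAS2, OASL, STING1 and USP18. The matches below are shown because 7 of their genes carry results on the replicate numbers or on the ASO and TLR3, with no call, stands beside them, each 5′ to 3′ on the strand of its gene, with the core in capitals, which reads as its reverse complement where it lies on the other strand. The first 5 belong to effectors and the last 3 to sensors, in the order IFIT1 at chr10:89392497-89392526 (+), ISG15 at chr1:1013380-1013409 (+), IFI44 at chr1:78649761-78649790 (+), IFI6 at chr1:27672329-27672358 (−), ISG20 at chr15:88638937-88638966 (+), IFIH1 at chr2:162318686-162318715 (−), OAS3 at chr12:112938452-112938481 (+) and TLR3 at chr4:186069142-186069171 (+).
IFIT1: ctagctttagTTTCACTTTCccctttcggt
ISG15: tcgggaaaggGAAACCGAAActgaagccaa
IFI44: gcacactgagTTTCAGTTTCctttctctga
IFI6: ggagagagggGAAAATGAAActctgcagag
ISG20: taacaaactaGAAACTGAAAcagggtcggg
IFIH1: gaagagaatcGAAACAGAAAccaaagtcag
OAS3: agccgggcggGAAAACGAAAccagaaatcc
TLR3: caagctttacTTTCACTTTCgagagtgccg

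In all, 33 matches were found in these windows, some of them overlapping, from position −164 before the start to position 20 after it. Of these, 28 lay wholly before the start. IFI6, IFIH1, IFIT5 and HERC5 each held 3.

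**Figure D1:**
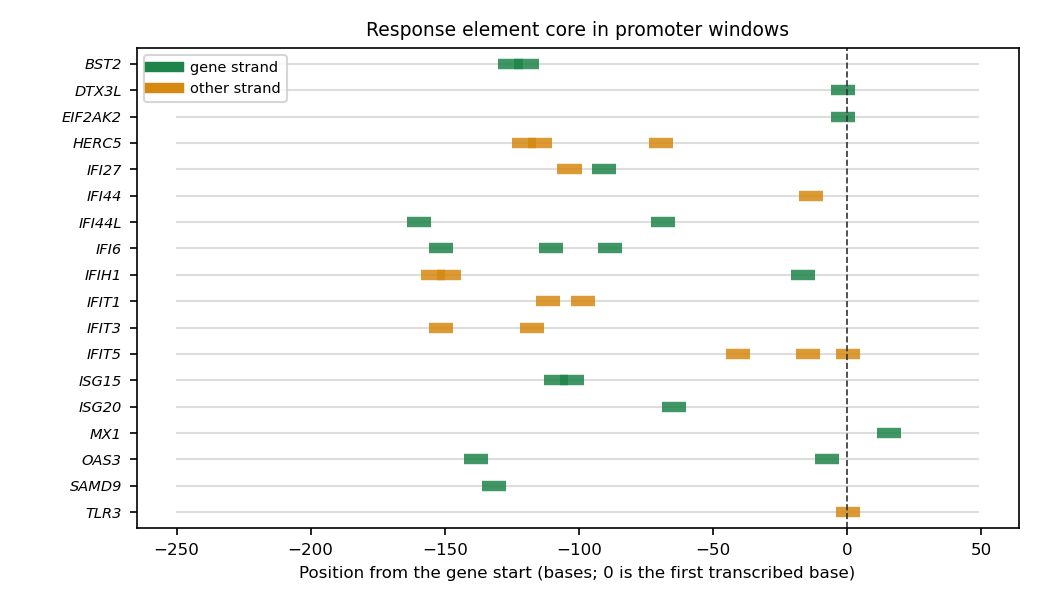
Positions of the response element core in the RefSeq promoter windows of the 18 genes that hold it, in bases from the gene start (grey lines are the windows, green the gene's own strand, orange the other strand). Of the 33 matches, 28 lie before the start.

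Because the ASO is directed at GAA repeats, the longest uninterrupted run of GAA, begun at any of its letters, was measured in the longest transcript of each gene (GENCODE 44). The runs were 5 to 9 nt long with a median of 7 nt, and the median over the 14751 tested genes with a transcript was also 7 nt. A run of at least 12 nt was present in 0 of 39 genes, beside 2.54% of those tested genes. Introns and other transcripts of the genes were not searched. In IFIH1 the longest run was 8 nt, in an exon of its longest transcript.

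The first question was which of these genes HCT116 cells express. A mean of at least 1 CPM was reached by 29 of the 39 genes, and the same 29 had at least 10 counts in every library and were tested. By role, 7 of 10 sensors, 2 of 2 adaptors, 3 of 4 factors and 17 of 23 effectors were tested. Because longer transcripts collect more reads, genes were compared with one another per kilobase of their canonical transcript. At a mean of at least 1 CPM per kilobase, 27 remained, without TLR3 and MX1.

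Per kilobase, ISG15, a ubiquitin-like protein that is attached to other proteins, had by far the highest level with 3810 CPM per kilobase, place 31 among the tested genes. IFI6, a protein of mitochondria and the endoplasmic reticulum, followed at 90.9 and IFIT1, which binds foreign RNA ends, at 47.6 CPM per kilobase. Among the genes grouped as sensors, the highest level was that of ADAR, the enzyme that edits adenosine in double-stranded RNA, at 28.2 CPM per kilobase. IFIH1 (7.84), OAS3 (6.53) and the kinase gene EIF2AK2 (5.86 CPM per kilobase) lay close together, and the ranges of these genes over the 4 libraries overlapped. DHX58 (2.34), OAS1 (1.22) and TLR3 (0.581 CPM per kilobase) were lower. Of the adaptors, STING1 was at 6.15 and MAVS at 1.69 CPM per kilobase, and the factors IRF7, IRF3 and STAT2 were at 13.7, 8.21 and 4.18 CPM per kilobase.

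The 10 genes that were not tested were at or near 0. TLR9, the endosomal sensor of unmethylated DNA, and SAMD9L had no count in any library, which allows up to 0.303 and 0.169 CPM in the anti-GAA libraries and 0.196 and 0.177 CPM in the control libraries (3 counts in each library, for counting error only). CGAS, the sensor of cytosolic DNA, had 0 and 2 counts in the anti-GAA libraries and 1 and 1 in the control libraries. OAS2, which like OAS1 and OAS3 makes an activator of RNase L, had 5 and 2 counts in the anti-GAA libraries and 15 and 9 in the control libraries. IRF9, the DNA-binding part of the factor that acts downstream of interferon, had 1 and 2 counts against 0 and 1. In GENCODE 44, 23.9% of the exon bases of IRF9 are shared with a read-through gene on the same strand, which was itself at 2 to 3 counts. The neighbouring gene RNF31 was also near 0, with 1 and 2 counts in the anti-GAA libraries and 2 and 1 in the control libraries. How far the counting of shared reads bears on the level of IRF9 was not tested. The overlap in the Ensembl annotation used for counting was not measured. The counts of IRF9 therefore do not by themselves show that it is not expressed. The exons of TLR9 are likewise nearly all shared with a read-through gene, at 0 in every library. Among the effectors, IFI44L, MX2, XAF1 and USP18 had 0 to 5 counts per library and SAMD9 4 to 10 counts.

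**Figure D2:**
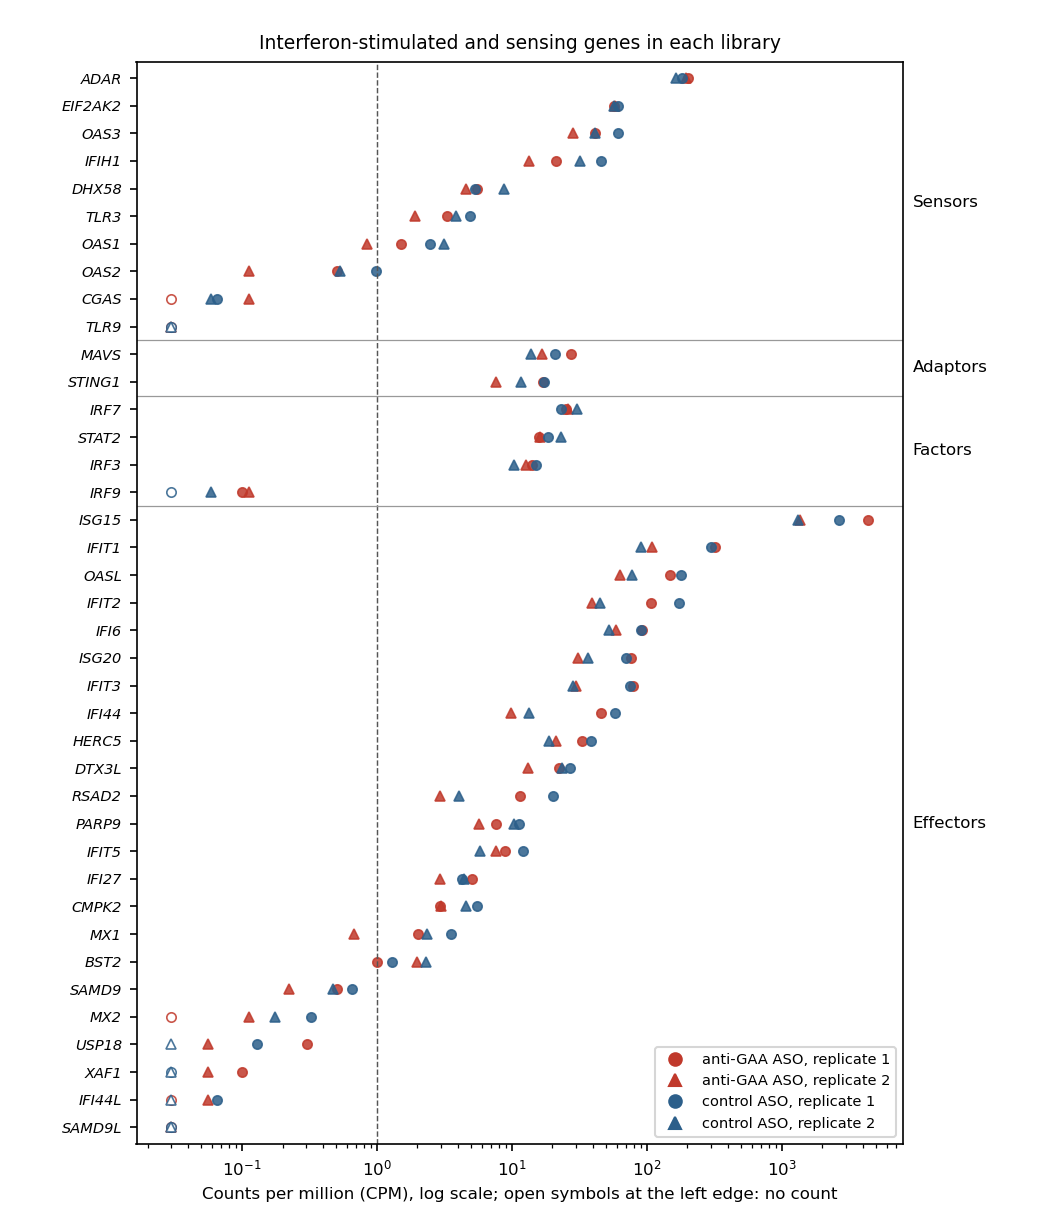
Level of each of the 39 genes in each library, in CPM on a log scale, by role and mean level (circles replicate 1, triangles replicate 2, red anti-GAA ASO, blue control ASO, open symbols no count). The dashed line marks 1 CPM, which 29 genes reach as a mean, and in many effectors the triangles of both colours lie left of the circles.

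Next, the libraries of the anti-GAA ASO were compared with those of the control ASO. In edgeR's quasi-likelihood test with the ASO as the only term, 0 of the 29 tested genes passed an adjusted p of 0.05, as was the case for all genes tested (0.00%), and DESeq2 also called 0 of the 29. Before adjustment of p, 3 were lower in the anti-GAA libraries at p under 0.05 (IFIH1, OAS1 and PARP9), beside 3.46% of all tested genes, and 0 were higher, beside 1.02%. With the number as a blocking term, edgeR called IFIH1 lower, 1 of 29 beside 1.37% of all tested genes, and 0 of 29 higher beside 0.337%. The median log2 fold change of the 29 genes was −0.26, with values from −1.29 to 0.53, beside 0.013 over all tested genes, and 22 of the 29 were below 0 (75.9%, beside 48.4% of all tested genes). The 6 epithelial markers had a median of like size, −0.24, with 5 of 6 below 0, and their part in the result was not tested. Leaving out a library from the fit with the ASO alone unbalances the replicate numbers. The median of the 29 genes was then −0.78 without anti-GAA replicate 1 and −0.51 without control replicate 2. It was −0.011 without anti-GAA replicate 2 and 0.052 without control replicate 1. Between the numbers, the median of these genes was −0.59 (replicate 2 over replicate 1), and its part in these shifts was not tested. With no library left out, the median between the ASOs was −0.28 with the block. Within replicates 1 and 2 it was −0.23 and −0.29. In bulk RNA, fewer cells with a transcript and less of it per cell cannot be told apart.

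Of the sensors, IFIH1 (MDA5, ENSG00000115267, chr2:162267074-162318684 on the minus strand in GRCh38), which binds long double-stranded RNA, stood at 21.4 and 13.4 CPM in replicates 1 and 2 of the anti-GAA ASO and at 45.6 and 31.9 CPM in those of the control ASO. Both anti-GAA libraries were below both control libraries, and within either ASO replicate 2 was the lower library. The log2 fold change was −1.16 (SE 0.31, adjusted p = 0.922 from edgeR), and with the block it was −1.17 (SE 0.16, adjusted p = 0.00498). DESeq2 with the block gave an adjusted p of 0.00249. Within the numbers, IFIH1 was lower with the anti-GAA ASO by a log2 difference of −1.09 in replicate 1 and −1.25 in replicate 2.

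OAS1, whose product activates RNase L, had 1.52 and 0.843 CPM in the anti-GAA libraries and 2.48 and 3.13 CPM in the control libraries. TLR3, the endosomal receptor for double-stranded RNA, had 3.33 and 1.91 CPM against 4.89 and 3.83 CPM. For both genes the groups did not overlap, at low levels. The log2 fold change of OAS1 was −1.29 (SE 0.46, adjusted p = 0.996 from edgeR, and adjusted p = 0.112 with the block), and that of TLR3 was −0.76 (SE 0.41, adjusted p = 0.996, and 0.205 with the block). OAS3, the longest of the OAS enzymes, had 41.6 and 28.2 CPM in the anti-GAA libraries and 61.5 and 41.2 CPM in the control libraries. Its groups overlapped only because replicate 1 with the anti-GAA ASO barely exceeded replicate 2 in the control libraries. Within the numbers the difference was nearly equal, at −0.56 and −0.55, and the blocked fit gave −0.56 (SE 0.15, adjusted p = 0.0743).

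The other sensors gave no difference past the threshold in either fit. DHX58, the regulatory helicase LGP2, had 5.56 and 4.55 CPM against 5.35 and 8.79 CPM, with differences of 0.054 and −0.93 within the numbers, so the pair of replicate 1 showed next to none. EIF2AK2 (the kinase PKR, which halts translation) had 57.0 and 58.4 CPM in the anti-GAA libraries and 60.8 and 57.6 CPM in the control libraries, a log2 fold change of −0.037 (SE 0.19). ADAR had 202 and 195 CPM against 183 and 166 CPM. It was the only one of the 29 genes with both anti-GAA libraries above both control libraries (beside 15.5% of all tested genes), with a log2 fold change of 0.19 (SE 0.19, adjusted p = 0.996 from edgeR).

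The adaptors and factors passed no threshold either. MAVS, the mitochondrial adaptor of the RNA helicases, had 27.6 and 16.8 CPM in the anti-GAA libraries and 20.9 and 13.9 CPM in the control libraries, higher with the anti-GAA ASO within both numbers. STING1, the adaptor downstream of cGAS, had 16.9 and 7.59 CPM against 17.3 and 11.6 CPM, and the difference within replicate 1 was only −0.04. Their log2 fold changes were 0.34 (SE 0.33) and −0.26 (SE 0.42). The factor STAT2 had 15.8 and 16.1 CPM against 18.5 and 23.2 CPM, without overlap, and a log2 fold change of −0.39 (SE 0.23, adjusted p = 0.996 from edgeR). IRF7 had 25.3 and 26.2 CPM against 23.3 and 30.5 CPM, and the control libraries lay on either side of the anti-GAA libraries. IRF3 had 14.2 and 12.7 CPM against 15.2 and 10.3 CPM, likewise within the range of the control libraries. Of the exon bases of IRF3, 19.4% overlap BCL2L12 on the opposite strand, which had 811 to 1350 counts, and since the strand setting of the counting is not given in the sources used here, reads of these bases cannot be told apart.

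Among the 17 tested effectors, 4 had both anti-GAA libraries below both control libraries, namely MX1, CMPK2, PARP9 and DTX3L. With IFIH1, TLR3, OAS1 and STAT2 this made 8 of the 29 genes (27.6%), beside 16.9% of all tested genes. PARP9, a partner of the ubiquitin ligase DTX3L, had 7.68 and 5.68 CPM in the anti-GAA libraries and 11.3 and 10.3 CPM in the control libraries. Its log2 fold change was −0.71 (SE 0.29, adjusted p = 0.996 from edgeR), and with the block −0.72 (SE 0.22, adjusted p = 0.112). DTX3L, which lies head to head with PARP9, had 22.2 and 13.2 CPM against 27.2 and 23.6 CPM. MX1, a GTPase that blocks virus replication, had 2.02 and 0.674 CPM against 3.52 and 2.36 CPM, and CMPK2, a mitochondrial nucleotide kinase, 2.93 and 2.98 CPM against 5.54 and 4.54 CPM. These are low levels, and with the block the adjusted p was 0.12 for MX1 and 0.189 for CMPK2.

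ISG15, IFIT1 and OASL, the effectors with the highest CPM, showed no common direction between the ASOs. ISG15 had 4370 and 1360 CPM in the anti-GAA libraries and 2650 and 1330 CPM in the control libraries, so the log2 difference was 0.72 in replicate 1 and only 0.035 in replicate 2. Its log2 fold change was 0.53 (SE 0.55, adjusted p = 0.996 from edgeR). It was −0.54 when anti-GAA replicate 1 was left out, which unbalances the replicate numbers. IFIT1 differed by 0.11 and 0.28 within replicates 1 and 2 and OASL, an OAS relative without the enzyme activity, by −0.28 and −0.29. For the 10 effectors that are called between the replicate numbers below, the log2 fold changes between the ASOs ran from −0.77 (RSAD2, SE 0.83) to that of ISG15, with adjusted p from 0.996 to 0.997. Over all 29 genes, 15 lay lower with anti-GAA within both numbers (51.7%, beside 30.0% of all tested genes). Of the 29, 6 were higher within both (beside 4802 of 15116 tested genes). The other 8 differed in sign between the numbers (beside 5774 of 15116).

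**Figure D3:**
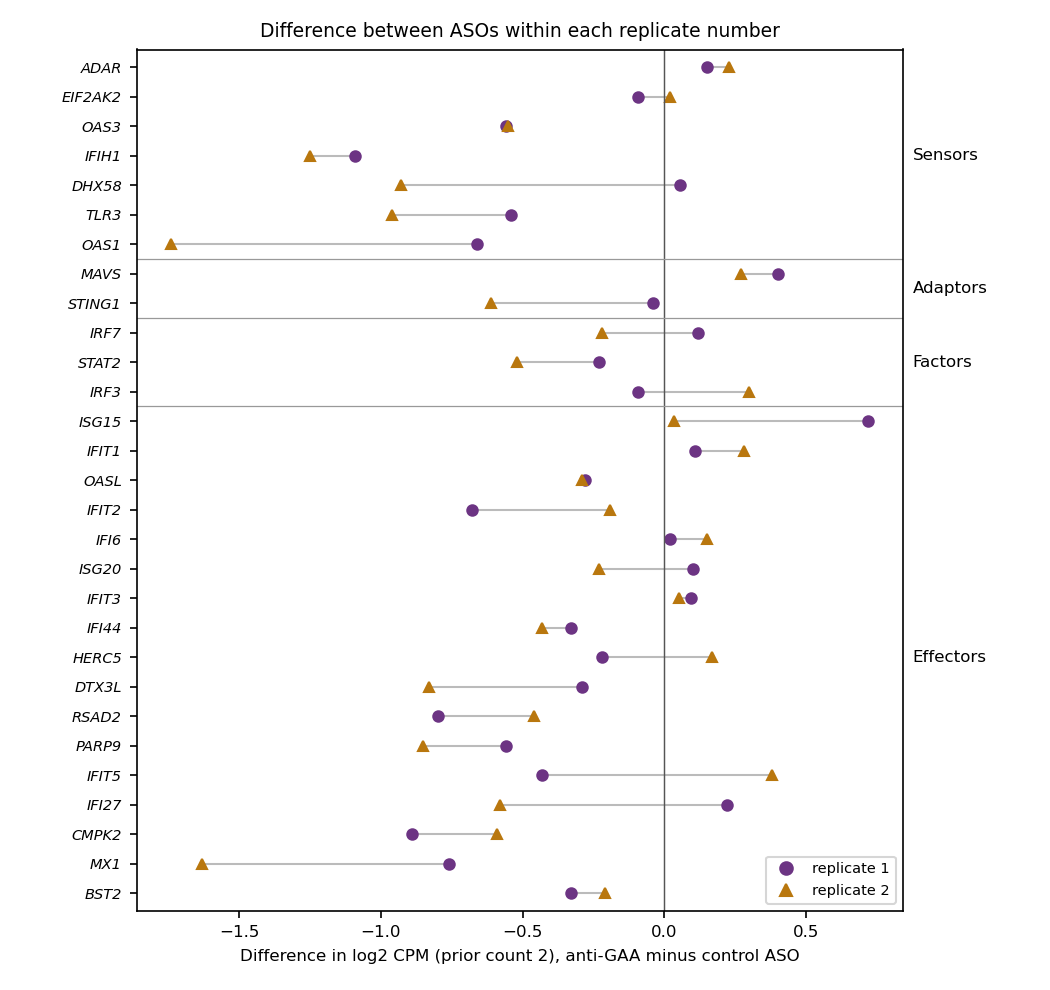
Difference in log2 CPM (prior count of 2) between the anti-GAA and the control ASO within replicate 1 (circles) and replicate 2 (triangles) for the 29 tested genes, by role. IFIH1 lies at −1.09 and −1.25, and 15 genes lie below 0 in both pairs.

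The replicate numbers were then compared, with the ASO as a second term in edgeR's fit, so that each ASO contributes a library to either number. Here the genes differed widely, as 14 of 29 (48.3%) were lower in replicate 2 at an adjusted p under 0.05, beside 7.52% of all tested genes, and 0 were higher, beside 6.98%. DESeq2 called 10 lower (34.5%, beside 3.27% of all tested genes) and 0 higher (beside 2.09%). Before adjustment, 17 were lower at p under 0.05 (58.6%, beside 15.0% of all tested genes) and 1 was higher (3.45%, beside 15.1%). The median log2 fold change of replicate 2 over replicate 1 was −0.59, beside 0.016 over all tested genes, and 25 of the 29 genes were below 0 (86.2%, beside 48.6% of all tested genes). In 15 genes both libraries of replicate 2 were below both of replicate 1 (beside 24.9% of all tested genes), and in IRF7 and BST2 both were above (beside 25.9%). The fit has 1 residual degree of freedom and shares the spread between genes, and what distinguishes the numbers in the laboratory was not tested.

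By role, 10 of the 17 tested effectors (58.8%) were lower in replicate 2, beside 7.52% of all tested genes. Of the other roles, which hold few genes, both adaptors, 2 of 7 tested sensors (28.6%) and 0 of 3 tested factors were lower. IFIT1, IFIT2 and IFIT3, of a family whose proteins bind viral RNA, gave differences of like size with either ASO. IFIT1 had 321 and 110 CPM in replicates 1 and 2 of the anti-GAA ASO and 297 and 90.7 CPM in those of the control, a log2 fold change of −1.63 (SE 0.14, adjusted p = 1.79e-05 from edgeR). IFIT2 had 107 and 39.2 CPM, and 172 and 44.7 CPM (−1.70, SE 0.16, adjusted p = 2.29e-05 from edgeR). IFIT3 had 79.6 and 29.7 CPM, and 74.6 and 28.6 CPM (−1.40, SE 0.15, adjusted p = 6.15e-05 from edgeR). For each gene both libraries of replicate 2 lay below both of replicate 1, at fitted levels 3.09, 3.25 and 2.64 times lower. The fourth member, IFIT5, had 8.89 and 7.64 CPM in the anti-GAA libraries and 12 and 5.84 CPM in the control libraries and did not pass the threshold (adjusted p = 0.0878 from edgeR).

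The largest differences belonged to IFI44 and RSAD2. IFI44, a cytoplasmic protein induced by interferon, had 46.1 and 9.83 CPM in anti-GAA replicates 1 and 2 and 58.0 and 13.3 CPM in the control libraries. Its log2 fold change was −2.17 (SE 0.16, adjusted p = 7.38e-06 from edgeR), or 4.51 times lower. RSAD2 (viperin, which makes a chain-terminating nucleotide) had 11.5 and 2.92 CPM, and 20.1 and 4.07 CPM, with a log2 fold change of −2.15 (SE 0.22, adjusted p = 6.21e-05 from edgeR). Of RSAD2's exon bases, 6.2% overlap its neighbour CMPK2 on the opposite strand, which had no difference past the threshold (−0.16, SE 0.27).

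ISG15 and its ligase also were lower in replicate 2. ISG15, at 4370 and 1360 CPM and at 2650 and 1330 CPM, had a log2 fold change between the numbers of −1.34 (SE 0.19, adjusted p = 0.000627 from edgeR). HERC5, the ligase that attaches ISG15 to new proteins, had 33.2 and 21.1 CPM in the anti-GAA libraries and 38.7 and 18.8 CPM in the control libraries (−0.85, SE 0.16, adjusted p = 0.00467 from edgeR). Replicate 1 was higher than replicate 2 in each pair of libraries, without overlap. The remaining effectors past the threshold were OASL, ISG20, an RNA exonuclease, and IFI6. OASL had 148 and 63.4 CPM, and 179 and 77.5 CPM (−1.21, SE 0.14). ISG20 had 75.8 and 30.9 CPM, and 70.6 and 36.4 CPM (−1.12, SE 0.15). IFI6 had 92.4 and 58.8 CPM in the anti-GAA libraries and 91.0 and 52.9 CPM in the control libraries, a smaller difference of −0.72 (SE 0.14, adjusted p = 0.00471 from edgeR).

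The 7 tested effectors that did not pass the threshold were IFIT5, IFI27, MX1, CMPK2, BST2, PARP9 and DTX3L, with log2 fold changes from −0.93 (MX1, SE 0.37) to 0.87 (BST2, SE 0.39). BST2, a tether that holds budding virus at the membrane, had 1.01 and 1.97 CPM in replicates 1 and 2 of the anti-GAA ASO and 1.3 and 2.3 CPM in those of the control ASO, and was thus higher in replicate 2 in both, at an adjusted p of 0.148 from edgeR.

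Both adaptors and a pair of sensors were also lower in replicate 2. STING1, at 16.9 and 7.59 CPM in the anti-GAA libraries and 17.3 and 11.6 CPM in the control libraries, gave a log2 fold change as large as that of HERC5 (−0.85, SE 0.20, adjusted p = 0.0142 from edgeR). MAVS, at 27.6 and 16.8 CPM and at 20.9 and 13.9 CPM, was lower too (−0.65, SE 0.17, adjusted p = 0.0201 from edgeR). Both libraries of replicate 2 were the lower ones for either adaptor. IFIH1 and OAS3, whose values are given above, had log2 fold changes of −0.59 (SE 0.16, adjusted p = 0.0241) and −0.57 (SE 0.15, adjusted p = 0.0202 from edgeR). For IFIH1 the numbers overlapped across the ASOs, since control replicate 2 was above anti-GAA replicate 1. These 4 calls, STING1, MAVS, IFIH1 and OAS3, are the ones DESeq2 did not make, with adjusted p from 0.071 to 0.121. The log2 fold changes of TLR3 (−0.54, SE 0.29), DHX58 (0.26, SE 0.27), OAS1 (−0.083, SE 0.39), EIF2AK2 (−0.022, SE 0.14) and ADAR (−0.097, SE 0.14) did not pass the threshold, and neither did those of IRF3 (−0.37, SE 0.19), IRF7 (0.23, SE 0.16) and STAT2 (0.19, SE 0.17).

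**Figure D4:**
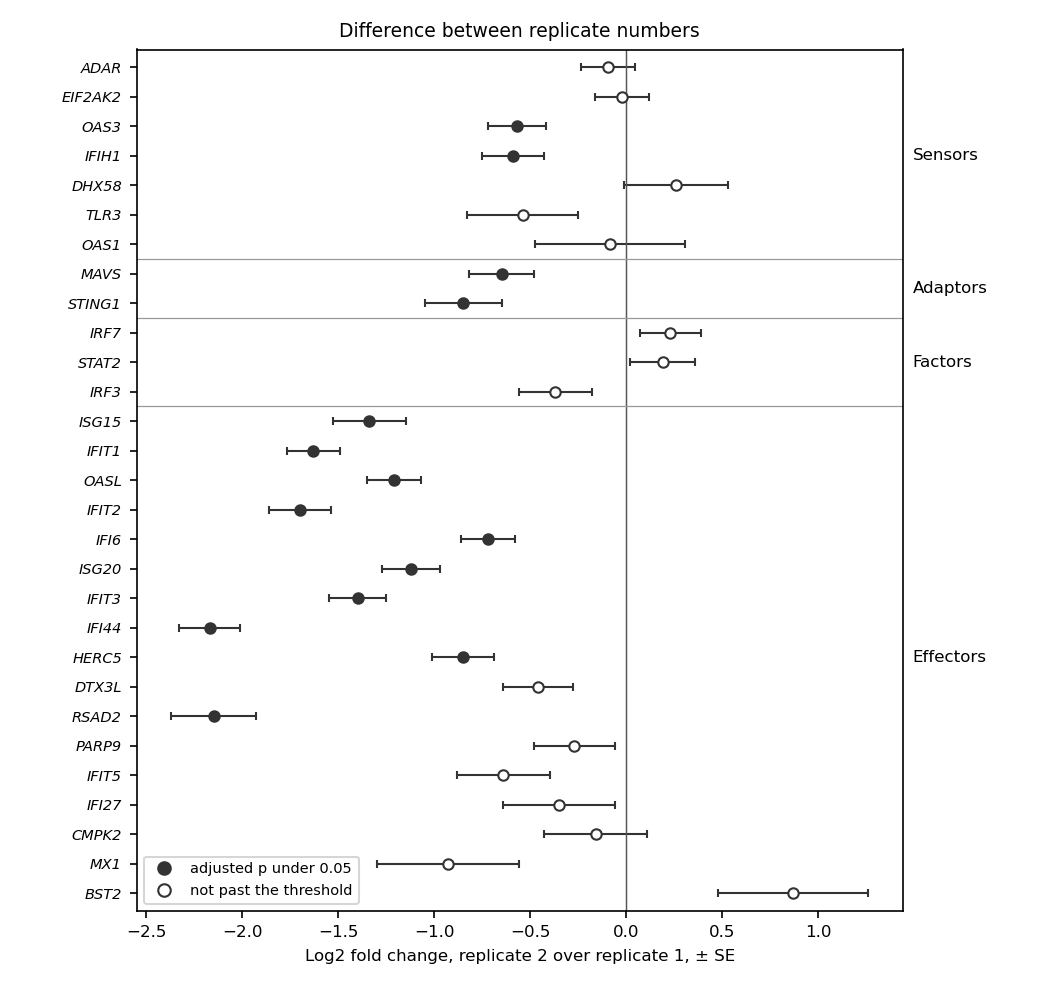
Log2 fold change of replicate 2 over replicate 1 with its standard error for the 29 tested genes, from edgeR with the ASO as a second term (filled symbols have an adjusted p under 0.05). The 14 filled symbols all lie below 0, with IFI44 and RSAD2 farthest, at −2.17 and −2.15.

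Read against the promoters shown above, 9 of the 11 genes called lower in replicate 2 that have a RefSeq window hold the core of the response element, as do 7 of the 12 genes tested and not called that have one. RSAD2 and MAVS were the called genes whose windows held no match. Other starts of a gene and other spacings were not searched, so a window without a match does not show that the element is missing. IFIT1, ISG15, IFI44, IFI6, ISG20, IFIH1 and OAS3, printed above, are 7 of the 9, and TLR3, also printed, is a gene with a match and no call.

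The wider pathway was described with lists of 109 other genes, of which 76 were tested. Of these, 17 (22.4%, beside 7.52% of all tested genes) were lower and 2 (2.63%, beside 6.98%) higher in replicate 2. DESeq2 called 8 lower (10.5%, beside 3.27%) and 1 higher (1.32%, beside 2.09%). With the anti-GAA ASO 0 passed the threshold without the block and 4 were lower with it (5.26%, beside 1.37% of all tested genes). Of these 4, DESeq2 with the block called only IRF1. Beginning with the ligands, 24 genes of interferons and interferon-induced chemokines were listed and 5 were tested. IFNB1, the first interferon to be made on infection, had 2 and 0 counts in the anti-GAA libraries and 11 and 2 in the control libraries, and was not tested. The 13 listed interferon alpha genes together had 1 count in all libraries.

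The ligands that were tested are lambda interferons, which act mainly on epithelial cells, and chemokines. IFNL1 had 5.25 and 2.53 CPM in anti-GAA replicates 1 and 2 and 10.8 and 2.71 CPM in the control libraries. IFNL3 had 2.63 and 1.29 CPM, and 4.76 and 1.47 CPM. In both genes replicate 1 of the control ASO was the highest library, and both libraries of replicate 2 were the lowest. Between the numbers their log2 fold changes were −1.56 (SE 0.28, adjusted p = 0.00342 from edgeR) and −1.39 (SE 0.34, adjusted p = 0.0171 from edgeR, 0.17 from DESeq2). IFNL3 and IFNL2 have nearly the same sequence, so reads may be split between them. CXCL10, a chemokine that draws T cells, had 23 and 3 counts in the anti-GAA libraries and 59 and 7 counts in the control libraries, a log2 fold change between the numbers of −3.39 (SE 0.47, adjusted p = 0.000519 from edgeR). Its relative CXCL11 had 11 and 1 counts and 22 and 0 counts, and also passed the threshold (adjusted p = 0.00207 from edgeR), though its fitted fold change depends on the prior count. DESeq2 gave no adjusted p for CXCL10 and CXCL11, and so did not call them. Between the ASOs, IFNL1 (−0.82, SE 0.67) and CXCL10 (−0.90, SE 1.23) did not pass the threshold.

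The receptors and the kinases and factors downstream of them were all detected, with 14 of 14 tested. IFNAR1, a subunit of the receptor for interferon alpha and beta, had 47.0 and 46.2 CPM in the anti-GAA libraries and 49.7 and 53.5 CPM in the control libraries, and passed no threshold in either comparison (−0.15, SE 0.20 between the ASOs, and 0.043, SE 0.14 between the numbers). Of the list, 1 gene (7.14%, near the 7.52% of all tested genes) was lower in replicate 2, IFNGR2, a subunit of the receptor for interferon gamma (−0.52, SE 0.14, adjusted p = 0.0288 from edgeR). This call was lost in DESeq2 (adjusted p = 0.0921) and with scaling to total counts (adjusted p = 0.054). Another was higher (7.14%, beside 6.98%), PTPN6, a phosphatase that restrains cytokine signalling (1.40, SE 0.24, adjusted p = 0.00221 from edgeR).

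Of the other sensors and signalling genes, 15 of 21 were tested, while the sensors TLR7, TLR8, ZBP1 and AIM2 had no count in any library. Lower in replicate 2 were RIGI, TRIM25, ZNFX1 and IRF1 (26.7%, beside 7.52% of all tested genes), and 0 genes were higher (beside 6.98%). Of these 4, DESeq2 called RIGI and ZNFX1 (13.3% of the tested list, beside 3.27% of all tested genes). RIGI, the helicase that binds RNA with a triphosphate end, had 56.1 and 23.3 CPM in anti-GAA replicates 1 and 2 and 86.9 and 36.9 CPM in the control libraries. It was lower in replicate 2 for either ASO and lower with the anti-GAA ASO within either number. Between the numbers the log2 fold change was −1.25 (SE 0.15, adjusted p = 0.000137 from edgeR). Between the ASOs it was −0.65 (SE 0.51, adjusted p = 0.996 from edgeR), and with the block −0.65 (SE 0.14, adjusted p = 0.0375), while DESeq2 with the block gave an adjusted p of 0.219. In the fit without the block it was 0.093 when control replicate 1 was left out, which unbalances the replicate numbers. Within replicates 1 and 2 the difference was −0.63 and −0.66. TRIM25, the ubiquitin ligase known as a partner of RIG-I, gave −0.44 (SE 0.14) between the numbers, a call lost in DESeq2 (adjusted p = 0.135), without a filter (adjusted p = 0.0595) and with scaling to total counts (adjusted p = 0.0904). ZNFX1, a helicase that senses RNA at mitochondria, gave −0.80 (SE 0.18).

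IRF1, a factor that is itself induced by interferon, had 17.6 and 12.7 CPM in the anti-GAA libraries and 37.9 and 22.9 CPM in the control libraries, so that both anti-GAA libraries were below both control libraries. Its log2 fold change between the ASOs was −1.01 (SE 0.31, adjusted p = 0.985 from edgeR), and −0.98 with the block (SE 0.17, adjusted p = 0.00975, and 0.0464 from DESeq2). Between the numbers it was −0.61 (SE 0.17, adjusted p = 0.0263 from edgeR), a call lost in DESeq2 (adjusted p = 0.14) and without the ASO term (adjusted p = 0.338). The remaining genes called lower in the blocked fit of the ASOs were SKIC2 and DDX60, named here after their values were seen. SKIC2 gave −0.70 with the block (SE 0.16, adjusted p = 0.0446 from edgeR, and 0.329 from DESeq2). DDX60, a helicase that assists RIG-I, had 7.78 and 6.86 CPM in the anti-GAA libraries and 16.2 and 15.3 CPM in the control libraries. Its log2 fold change was −1.11 without the block (SE 0.25, adjusted p = 0.686 from edgeR) and −1.11 with it (SE 0.20, adjusted p = 0.0122, and 0.0863 from DESeq2), and it hardly differed between the numbers (−0.13, SE 0.20).

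A further 10 genes remove or process nucleic acids or nucleotides, among them the editing enzyme gene ADARB1, and all were tested. RNASEH1, which cuts RNA paired with DNA, was lower in replicate 2 (−0.69, SE 0.17, adjusted p = 0.0153 from edgeR). It was 1 of 10, beside 7.52% of all tested genes, and 0 were higher, beside 6.98%. Of 40 other interferon-induced genes, 32 were tested, and 7 were lower (21.9%, beside 7.52%) and 1 higher (3.12%, beside 6.98%) in replicate 2. The lower genes included ZC3HAV1, an antiviral protein that binds viral RNA (−1.24, SE 0.14), NMI, a partner of STAT proteins (−0.98, SE 0.18), the peptide transporter gene TAP2 (−0.62, SE 0.15) and TRIM14, which assists MAVS (−0.62, SE 0.15). The higher gene was LAP3, an aminopeptidase (0.54, SE 0.14). In DESeq2 the calls of TAP2 (adjusted p = 0.079), TRIM14 (adjusted p = 0.0523) and LAP3 (adjusted p = 0.0521) were lost. It called 4 of the 32 genes lower (12.5%, beside 3.27% of all tested genes). Between the numbers the median log2 fold change was −1.56 for the 5 ligands, −0.13 for the other interferon-induced genes and 0.018 for receptors and their downstream genes, beside 0.016 for all tested genes.

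**Figure D5:**
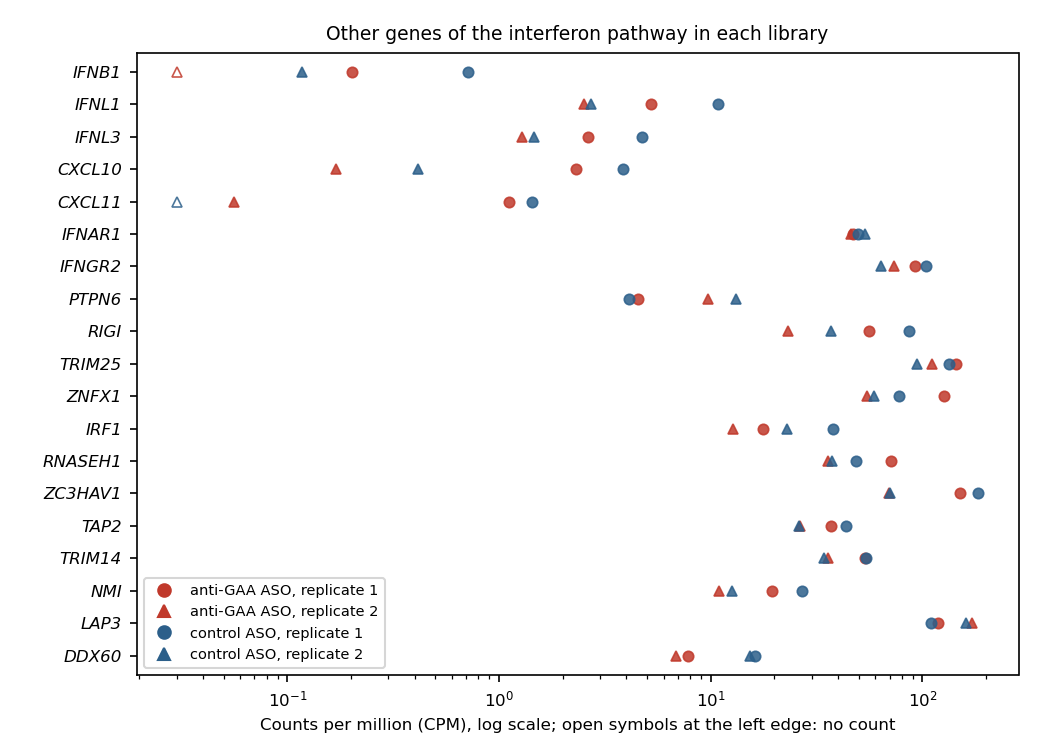
Level of 19 other genes of the pathway in each library, in CPM on a log scale (circles replicate 1, triangles replicate 2, red anti-GAA ASO, blue control ASO, open symbols no count). For RIGI, ZC3HAV1, CXCL10 and IFNL1 the triangles lie left of the circles, for PTPN6 and LAP3 right of them, and for DDX60 the red symbols lie left of the blue ones.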

How the data were processed

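RNA of HCT116 cells was sequenced in 4 libraries. Per the authors' methods, reads went through Trimmomatic and STAR, those on GL contigs were dropped, and featureCounts assigned the rest to Ensembl genes of hg19. The deposited values are raw counts, whole numbers without normalization, and 0 columns with sample values were left out. The labels name a total RNA kit and the methods a stranded mRNA kit. The strand setting and the Ensembl release are not given in the sources used here.

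Tests were run with edgeR 4.0.16 in R 4.3.3 (filterByExpr, TMM, quasi-likelihood F-test, Benjamini-Hochberg adjustment over 15116 genes, threshold 0.05). The ASO was the only term in the comparison of the ASOs, and the ASO and the replicate number were the terms in that of the numbers. Alternatives were DESeq2 1.42.0 (the authors' tool), its size factors, scaling to total counts, other filters and thresholds, the replicate number as a block, no ASO term, leaving out each library, and offsets for length and GC content (mgcv 1.9.3, 97.6% of tested genes with a value). Scripts were tested on simulated data. For differences within numbers, log2 CPM used a prior count of 2.

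Symbols, positions and transcripts came from GENCODE 44 by Ensembl identifier (52181 of 63677 genes), with no coordinate carried over from hg19. The genes and lists were chosen with earlier results of these data known. Values are given for genes past a threshold in either comparison or the blocked fit, all sensors, adaptors and factors, the effectors with the 3 highest and 3 lowest levels, and, of the pathway lists, up to 5 called genes each with RIGI, IFNB1 and IFNAR1. A further gene that the rule names is not reported here. Other genes named, such as DTX3L, IFIT5, IFNL2, SKIC2 and DDX60, were chosen after their values were seen.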

Additional observations from a re-analysis of the deposited data

How the results depend on the processing

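In the comparison of the ASOs, the number of genes called depended on the fit. No gene was called lower or higher in the fit with the ASO alone, and the counts, lower and higher, were 523 and 154 at p under 0.05 before adjustment, 207 and 51 with the replicate block, 5 and 0 in DESeq2, 45 and 13 in DESeq2 with the block, 111 and 5 without a filter, and 194 and 101 with the length and GC correction together with the block. Of the 29 described genes, 3 had p under 0.05 before adjustment, all lower, and 1, IFIH1, was lower with the block, in DESeq2 with the block, with the correction and the block, and without a filter. None of the 29 was called in the other fits of this comparison. Libraries with the same number deviated together from the mean of their ASO (Pearson's r = 0.564 across genes), but with 2 pairs, and without a source saying what the number marks, the pairing is only a hint from the data. Leaving out a library gave 0 to 16 genes lower and 0 to 3 higher (16 and 2 when control replicate 1 was left out, 2 and 3 when anti-GAA replicate 2 was), and a median of the described genes from −0.78 to 0.052. With scaling to total counts that median was −0.36, beside −0.081 over all tested genes.

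Log2 fold changes between the ASOs that changed sign were those of ISG20 (0.0068 in DESeq2, 0.0041 with its size factors, 0.05 with the correction and 0.0067 with the correction and the block), EIF2AK2 (0.12 with the correction, 0.12 with the block added), and, with scaling to total counts, IRF3 (−0.0065), IFIT3 (−0.015) and IFI6 (−0.022). Leaving out a library, which unbalances the numbers, gave ranges on both sides of 0 for MAVS (−0.044 to 0.67), STING1 (−0.92 to 0.22), IRF3 (−0.17 to 0.38), IRF7 (−0.25 to 0.15), IFIT1 (−0.81 to 1.25), IFIT2 (−1.46 to 0.70), IFIT3 (−0.79 to 0.92), IFI6 (−0.28 to 0.51), IFI44 (−1.85 to 1.05), ISG15 (−0.54 to 1.14), ISG20 (−0.78 to 0.54), OASL (−1.01 to 0.44), RSAD2 (−2.04 to 0.79), HERC5 (−0.51 to 0.52), BST2 (−0.83 to 0.23), CXCL10 (−3.58 to 1.45), IFNL1 (−1.49 to 0.49) and RIGI (−1.40 to 0.093). IFIH1 ranged from −1.53 to −0.85.

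Between the replicate numbers, 1136 genes were lower and 1055 higher in replicate 2. The counts were 2266 and 2281 before adjustment of p, 494 and 316 in DESeq2, 201 and 167 without the ASO term, and 1639 genes were higher at an adjusted p under 0.1. Of the described genes, 10 to 17 were lower over all settings and 1 was higher at an unadjusted p under 0.05. Without the ASO term, the described genes IFIH1, OAS3, MAVS and STING1 lost their calls (adjusted p from 0.102 to 0.465), as did IFNL1, IFNL3, IFNGR2, ZNFX1, IRF1, TRIM25, RNASEH1, NMI, TRIM14, TAP2 and LAP3 of the pathway (adjusted p from 0.0516 to 0.338). The signs of EIF2AK2 (0.066) and OAS1 (0.0054) changed with scaling to total counts and that of IFNAR1 (−0.041) with the correction. Leaving out a library leaves no residual degree of freedom, so only values could be had. The median ranged from −0.73 to −0.58, and signs changed for DHX58 (−0.30 to 0.72), EIF2AK2 (−0.077 to 0.02), OAS1 (−0.85 to 0.33), CMPK2 (−0.29 to 0.0089) and IFNAR1 (−0.039 to 0.11). The cause of these changes was not tested. Alternatives for genes outside the 39 were chosen after seeing the data. CGAS, at 0 to 2 counts per library, could not be tested at this depth.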
